A study of Mus musculus with 2 samples.

Results

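Genes of the interferon response and of antigen presentation were followed by RNA-seq in optic nerves taken whole from mice at postnatal day 12. The set holds 45 genes chosen by symbol, and each of the 45 has a single entry in both deposited tables, out of 23950 symbols in all. It was divided by role into 4 interferon receptor chains, 7 regulators and sensors, 20 interferon-induced effectors, 3 immunoproteasome subunits, 3 peptide loading genes, 4 MHC class I genes and 4 MHC class II genes. Sequencing covered 1 library of the control group and 1 library of the Hdac3 cKO group. The control carries the genotype Hdac3f/+; Olig1-cre and the cKO the genotype Hdac3f/f; Olig1-cre, both on a strain background given as mixed. Both groups therefore carry Olig1-cre, a recombinase expressed from Olig1, a gene of the oligodendrocyte lineage, and the control also has 1 Hdac3 allele that the recombinase can delete. The sources used here do not give how many animals went into a library. No group has a replicate, and every difference below describes these 2 libraries.

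Interferons are secreted proteins that act through the receptor pairs IFNAR1 with IFNAR2 (type I interferons) and IFNGR1 with IFNGR2 (interferon gamma). The receptors activate STAT and IRF transcription factors, which switch on antiviral effectors and the machinery that cuts proteins with the immunoproteasome, moves the peptides with the TAP transporter and shows them on MHC class I molecules. MHC class II molecules, which present peptides of taken-up proteins with the help of the invariant chain CD74, are made mainly by professional antigen presenting cells. In nervous tissue, microglia and the macrophages of meninges and vessels are known sources of many of these transcripts, while endothelium and glia can also be induced to make them.

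The unit is FPKM, a level of fragments per length of transcript that is also scaled to the library, with a deposited interval for each value. Read depth is unknown, and the intervals were wider in the control library (median half-width 7.52% of the midpoint) than in the cKO library (4.21%). The difference is given as log2 of cKO FPKM plus 1 over control FPKM plus 1, which understates the change of genes with low values. To be counted higher or lower, a gene had to differ by 2-fold or more on this scale, with deposited intervals that did not overlap. The 14154 genes tested reached 1 FPKM in either library. By this rule 669 genes (4.73%) were higher and 638 (4.51%) lower in the cKO library. The median difference of all tested genes was 0.12. Bringing both libraries to the same upper quartile moved it to 0.04, and bringing them to the same sum moved it to -0.17, with 215 genes higher and 963 lower. Hdac3 was at 36.4 FPKM in control against 38.0 in cKO (log2 0.06), a value over the whole gene that does not check the labels. Oligodendrocyte markers were lower for 9 of 9 genes, with a summed level of 28539 FPKM in control against 3879 in cKO. Whole-nerve values cannot tell fewer cells of a type from less RNA per cell.

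Most of the interferon and antigen presentation genes were higher in the cKO library, by modest amounts. Of 44 tested genes, 10 were counted higher (22.7%, beside 4.73% of all tested genes) and 0 lower (beside 4.51%). The 10 were Isg15, Ifi27l2a, Ifi27, Ifitm1, Ifitm2 and Ifitm3 among the effectors, B2m and H2-D1 in class I, and H2-Aa and Cd74 in class II. The log2 difference was above 0 for 40 of the 44, beside 61.4% of all tested genes, and the deposited intervals were separate for 40 genes, beside 60.9% of all. The median log2 difference of the 44 was 0.70, beside 0.12 for all tested genes. At 1.5-fold, 25 genes were counted higher (beside 16.0% of all) and 0 lower (beside 8.85%). Stat2, Cxcl10, Rsad2 and Mx1 were the 4 genes with a difference below 0. Nlrc5, which drives MHC class I transcription, stayed under the minimum in both libraries, at 0.279 FPKM in control against 0.295 in cKO, and was not tested.

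**Figure D1:**
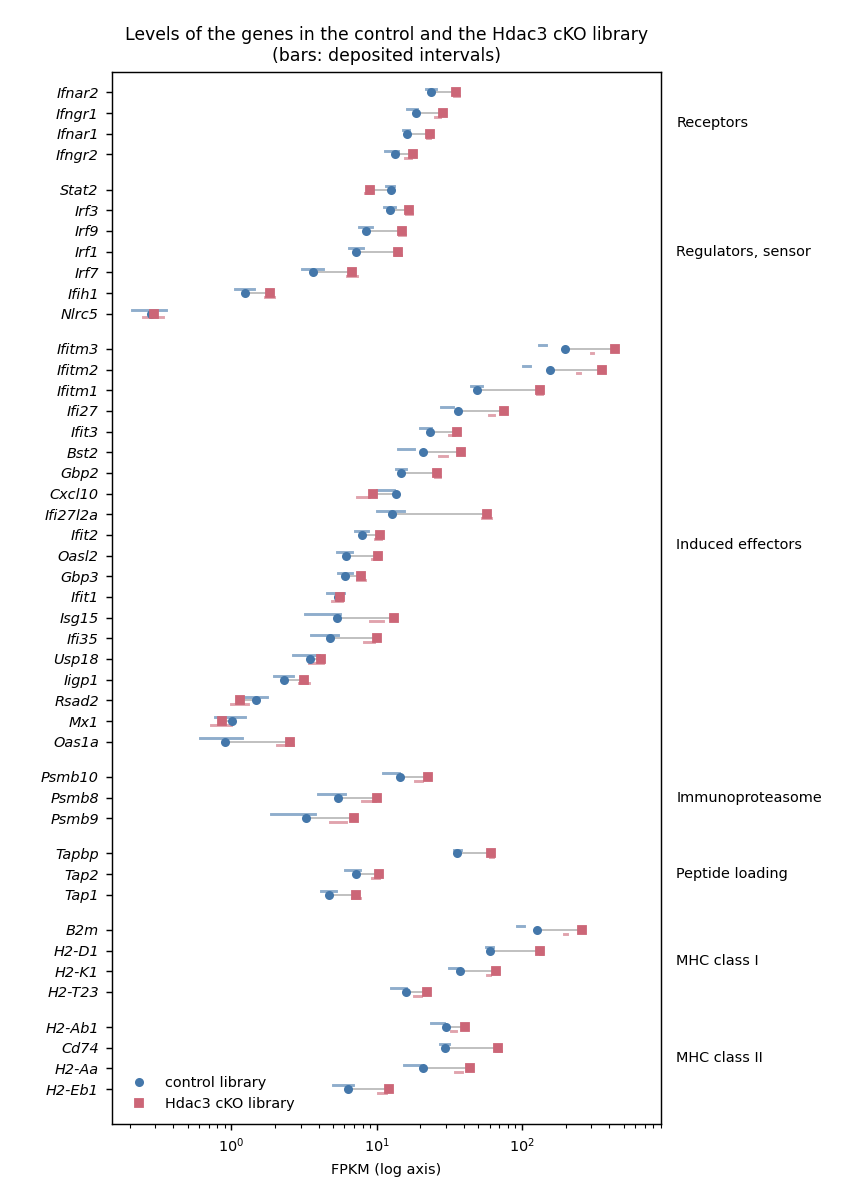
FPKM of each of the 45 genes (log axis) in the control library (blue circles) and the Hdac3 cKO library (red squares), by role, with the deposited intervals as short bars above and below. Ifitm3, Ifitm2 and B2m are at the top in both libraries, Stat2, Cxcl10, Rsad2 and Mx1 are the genes with the red square to the left, and many points lie outside their own bars.

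The order of levels was much the same in both libraries. Ifitm3, Ifitm2, B2m, H2-D1 and Ifitm1 held ranks 1 to 5 of the 45 genes in each. The largest moves in rank were those of Ifi27l2a, from 22 in control to 10 in cKO, and of Cxcl10, from 20 to 32, and Stat2 went from 23 to 33. The control value lay outside its own deposited interval for 11 of the 45 genes and the cKO value for 20, so the intervals do not fully describe the error within a library. Over all tested genes the shares were 15.2% and 32.1%. Replacing each FPKM by the midpoint of its interval, an alternative chosen after these values were seen, left 9 genes counted higher, without Ifi27, beside 4.26% of the genes tested that way.

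The receptor chains were all somewhat higher in cKO, and none reached 2-fold. Ifnar1, at 16.1 FPKM in control against 23.3 in cKO (log2 0.51), and Ifnar2, at 23.8 and 35.4 (log2 0.55), encode the type I receptor. Ifngr1, which binds interferon gamma, was at 18.8 and 28.6 FPKM (log2 0.58). Ifngr2, its signalling partner, was at 13.4 and 17.8 FPKM (log2 0.38). The deposited intervals of the libraries were separate for all 4. The ligands were at or near 0: of 9 interferon genes listed, 7 (Ifna1, Ifna2, Ifnb1, Ifnk, Ifne, Ifnl2 and Ifnl3) were listed at 0 in both libraries, and the highest value of the other 2 was 0.0260 FPKM, for Ifna4 in cKO.

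Among the regulators, the IRF genes were higher and Stat2 was lower, all by less than 2-fold. Irf1, a factor induced by interferon gamma, was at 7.22 FPKM in control against 14.0 in cKO (log2 0.87). Irf9, a DNA-binding partner of STAT2, was at 8.40 and 14.9 FPKM (log2 0.76). Irf7, which amplifies type I interferon production, was at 3.66 and 6.79 FPKM (log2 0.74). Each of these had separate intervals and was counted higher at 1.5-fold. Irf3, the constitutive factor that sensors activate, was at 12.4 and 16.7 FPKM (log2 0.41). Ifih1, the cytoplasmic sensor of double-stranded RNA MDA5, was at 1.25 and 1.84 FPKM (log2 0.34). Stat2 went the other way, at 12.7 FPKM in control against 8.94 in cKO (log2 -0.46), again with separate intervals.

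The effectors were the most varied group, from -0.47 for Cxcl10 to 2.09 for Ifi27l2a, with a median log2 difference of 0.72. Of 20, 6 were counted higher (beside 4.73% of all tested genes) and 0 lower (beside 4.51%). Ifi27l2a, an interferon-induced gene of the ISG12 family (chromosome 12, 104672083 to 104681890, mm9), was at 12.7 FPKM in control (interval 10.03 to 15.5) and 57.2 in cKO (interval 53.4 to 61.1). The intervals lie far apart, and the log2 difference was 2.09. Ifi27, of the same family, was at 36.2 and 74.7 FPKM (log2 1.02), above its own interval in both libraries. Its deposited locus, 104672399 to 104678455, lies inside that of Ifi27l2a, so how fragments were divided between these 2 entries is uncertain.

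The interferon-induced transmembrane genes, whose products block virus entry at membranes, were the most abundant effectors. Ifitm3 (chromosome 7, 148195489 to 148196643) was at 197 FPKM in control against 439 in cKO (log2 1.15). Ifitm2 (148140738 to 148141860) was at 156 and 357 FPKM (log2 1.19). Ifitm1 (148153328 to 148155726) was at 49.0 and 132 FPKM (log2 1.42). All 3 were higher in cKO with separate intervals, and their sum was 402 FPKM in control against 929 in cKO. The values of Ifitm2 and Ifitm3 lie well above their own intervals, which for Ifitm3 were 130 to 145 in control and 297 to 310 in cKO. In GENCODE M21 transcripts, 48.5% of the 50-base words of Ifitm2 and 10.02% of those of Ifitm3 also occur in other genes, so their levels are uncertain. Ifitm1 shares 6.36%.

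Isg15, a ubiquitin-like protein that is coupled to other proteins after interferon (chromosome 4, 155573533 to 155574927), was at 5.33 FPKM in control (interval 3.21 to 5.605) and 13.1 in cKO (interval 8.96 to 11.0), a log2 difference of 1.16. The cKO value is the higher by either measure, although it lies above its own interval. Usp18, the protease that removes ISG15, was at 3.47 and 4.18 FPKM (log2 0.21) with overlapping intervals, and its difference was below 0 after scaling to the same sum.

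Classical antiviral genes differed in both directions. Ifit1, which binds viral RNA ends, was at 5.42 FPKM in control against 5.59 in cKO (log2 0.04), and the sign changed under each of the 4 other scalings. Ifit2 was at 7.98 and 10.6 FPKM (log2 0.37) and Ifit3, its binding partner, at 23.4 and 35.9 (log2 0.60), although 51.2% of the words of Ifit3 also occur in its copy Ifit3b. Rsad2, which encodes viperin, was at 1.49 and 1.16 FPKM (log2 -0.21), and Mx1, a dynamin-like GTPase, at 1.01 and 0.858 (log2 -0.11). The intervals of the libraries overlapped for Ifit1, Rsad2 and Mx1. Cxcl10, a chemokine that attracts T cells, was at 13.6 FPKM in control against 9.50 in cKO (log2 -0.47), with separate intervals. Both values lie above their own intervals, which end at 13.1 in control and 8.85 in cKO. Its locus lies inside that of another entry, at 2.40 FPKM in control and 1.58 in cKO, so its level is uncertain.

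The remaining effectors were higher, by less than 2-fold with 1 added to each FPKM. Bst2, or tetherin, which holds budding virus at the cell surface, was at 20.9 and 38.1 FPKM (log2 0.83). Gbp2 and Gbp3, guanylate-binding GTPases, were at 14.7 and 26.0 FPKM (log2 0.78) and at 6.07 and 7.86 (log2 0.33). Iigp1, an immunity-related GTPase, was at 2.32 and 3.19 FPKM (log2 0.33). Ifi35 was at 4.79 and 10.1 FPKM, a log2 difference of 0.93 that reached 2-fold with a pseudocount of 0.1. Of its words, 10.7% also occur in another gene. Oasl2, of the oligoadenylate synthetase family, was at 6.15 and 10.3 FPKM (log2 0.66). Oas1a was at 0.910 and 2.53 FPKM (log2 0.89), also 2-fold with that pseudocount, but 57.6% of its words occur in Oas1g. Without the Ifi27 and Ifitm genes, a split made after the values were seen, 1 of 15 effectors was counted higher, a share near the 4.73% of all tested genes, and their median was 0.37, beside 0.12 for all tested genes.

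**Figure D2:**
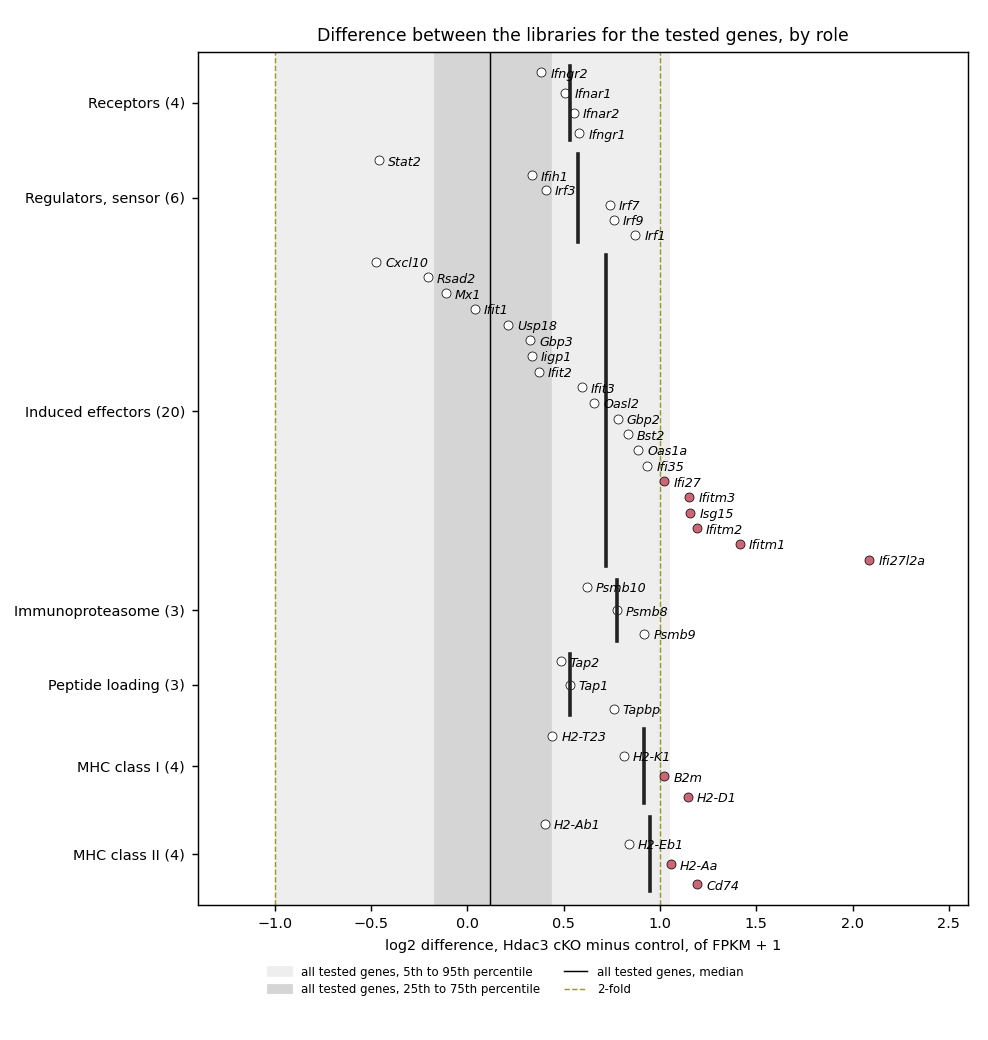
Log2 difference (cKO minus control, FPKM plus 1) of the 44 tested genes by role, with filled points for genes counted higher, vertical bars for role medians, and the spread of all 14154 tested genes in grey. Role medians run from 0.53 for the receptors to 0.95 for class II, and the effectors spread from -0.47 to 2.09.

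Promoter letters of 1 element were compared with these differences. The interferon-stimulated response element (ISRE), a site for IRF9 together with STAT2, was searched as GAAA, any 2 bases and GAAA again, on both strands in the 250 bases before each RefSeq start (GRCm38.p6). Of the 45 genes, 36 had a promoter entry, and 13 of these (36.1%) held the letters, beside 3.46% of 27025 genes. Isg15, Ifitm2 and B2m were the 3 holders among the 7 genes counted higher that had an entry. Stat2, Cxcl10 and Rsad2, all 3 genes with an entry and a difference below 0, held the letters too. The median log2 difference was 0.60 for the 13 genes with the letters and 0.76 for the 23 without. The stretches below show 3 genes counted higher and then 3 that were not, 5′ to 3′ on the strand of the gene and ending at the base before its start, with the ISRE letters or their reverse complement in capitals.
Isg15 (chr4:156200819-156201068, minus strand): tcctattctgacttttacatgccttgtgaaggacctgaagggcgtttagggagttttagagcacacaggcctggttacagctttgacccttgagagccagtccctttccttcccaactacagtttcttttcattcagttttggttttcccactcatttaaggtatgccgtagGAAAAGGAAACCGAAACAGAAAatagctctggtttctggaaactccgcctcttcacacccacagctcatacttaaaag
Ifitm2 (chr7:140955962-140956211, minus strand): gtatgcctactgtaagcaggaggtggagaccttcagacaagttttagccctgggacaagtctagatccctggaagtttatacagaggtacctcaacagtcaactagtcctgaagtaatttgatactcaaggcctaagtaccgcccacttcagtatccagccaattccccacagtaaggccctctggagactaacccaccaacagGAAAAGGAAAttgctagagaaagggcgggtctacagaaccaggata
B2m (chr2:122147437-122147686, plus strand): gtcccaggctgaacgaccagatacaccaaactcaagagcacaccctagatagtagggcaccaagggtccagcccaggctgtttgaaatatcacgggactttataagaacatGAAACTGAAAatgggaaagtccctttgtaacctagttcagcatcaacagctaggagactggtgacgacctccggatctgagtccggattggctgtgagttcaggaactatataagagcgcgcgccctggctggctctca
Ifit1 (chr19:34640639-34640888, plus strand): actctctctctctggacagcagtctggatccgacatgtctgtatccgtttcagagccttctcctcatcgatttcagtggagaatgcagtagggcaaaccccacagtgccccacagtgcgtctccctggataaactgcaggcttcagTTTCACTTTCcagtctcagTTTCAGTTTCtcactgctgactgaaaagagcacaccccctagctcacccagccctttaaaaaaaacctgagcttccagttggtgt
Cxcl10 (chr5:92348890-92349139, minus strand): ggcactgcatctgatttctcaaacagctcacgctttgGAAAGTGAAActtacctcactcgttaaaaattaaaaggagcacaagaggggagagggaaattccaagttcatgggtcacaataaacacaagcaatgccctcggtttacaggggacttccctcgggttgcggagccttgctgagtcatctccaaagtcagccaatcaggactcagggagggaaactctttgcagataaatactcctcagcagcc
Rsad2 (chr12:26456453-26456702, minus strand): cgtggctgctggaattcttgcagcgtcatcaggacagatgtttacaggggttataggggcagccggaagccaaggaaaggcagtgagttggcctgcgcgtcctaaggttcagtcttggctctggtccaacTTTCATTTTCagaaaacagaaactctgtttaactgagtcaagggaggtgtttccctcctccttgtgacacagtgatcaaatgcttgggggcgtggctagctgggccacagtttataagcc
Isg15 holds 3 matches that overlap end to end, the first starting 78 bases before the start, and Ifit1 holds 2, starting 104 and 85 bases before it. The match in B2m starts 139 bases before the start and that in Cxcl10 213 bases before it. A match of letters describes the sequence and does not show that a factor was bound.

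The immunoproteasome subunits replace the standard catalytic subunits of the proteasome. All 3 were higher in cKO, by less than 2-fold with 1 added to each FPKM. The subunits they replace differed by at most 0.24 on the log2 scale. Psmb8 was at 5.44 FPKM in control against 10.01 in cKO (log2 0.77), and its counterpart Psmb5 at 72.0 and 85.3 (log2 0.24). Psmb9 was at 3.25 and 7.03 FPKM (log2 0.92, and past 2-fold with a pseudocount of 0.1), and Psmb6 at 87.7 and 88.5 (log2 0.01). Psmb10 was at 14.4 and 22.7 FPKM (log2 0.62), and Psmb7 at 123 and 113 (log2 -0.12). The cKO values of Psmb8, Psmb9 and Psmb10 lie above their own intervals, which for Psmb9 was 4.81 to 6.17. With interval midpoints the log2 difference of Psmb9 was 0.76. As a percent of the subunit replaced, Psmb8 went from 7.55% in control to 11.7% in cKO, Psmb9 from 3.70% to 7.95% and Psmb10 from 11.7% to 20.1%. These ratios do not depend on the scaling of the libraries, and in both the standard subunits remained the more abundant. Of 17 standard core and activator genes, 0 were counted higher or lower, with a median log2 difference of 0.01. The log2 differences of Psme1 and Psme2, the interferon-inducible activator, were above those of all core subunits on the list, at 0.59 (41.7 and 63.3 FPKM) and 0.48 (47.1 and 66.1 FPKM).

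**Figure D3:**
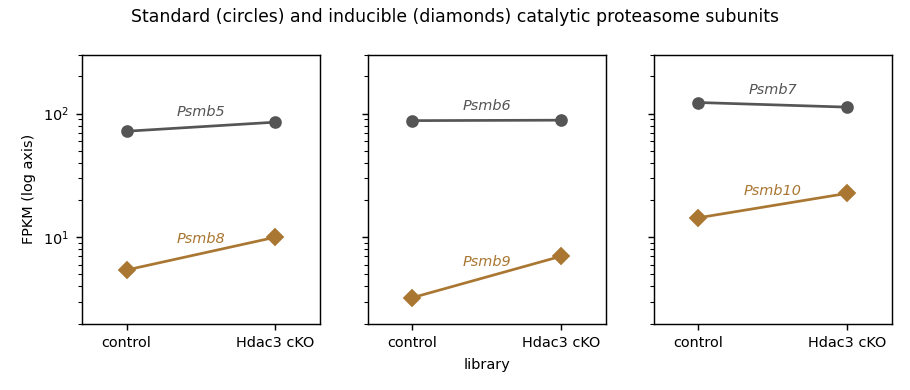
FPKM (log axis) of each standard catalytic subunit (grey circles) and the inducible subunit that replaces it (brown diamonds) in the control and the Hdac3 cKO library. The inducible subunits go up from left to right, from 3.25 to 7.03 FPKM for Psmb9, and the standard ones stay between 72.0 and 123 FPKM.

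Peptide loading genes were higher by similar amounts. Tap1, at 4.69 FPKM in control against 7.23 in cKO (log2 0.53), and Tap2, at 7.18 and 10.4 (log2 0.48), form the peptide transporter. Tapbp, or tapasin, which joins the transporter to class I, was at 35.9 and 61.4 FPKM (log2 0.76). Tap1 and Psmb9 lie head to head on chromosome 17 with 225 bases between their deposited loci (mm9), so the same stretch precedes both of these starts. It is shown here on the plus strand, as the region between the RefSeq starts in GRCm38.p6, where 0 ISRE matches were found.
Tap1 and Psmb9 (chr17:34187331-34187555, plus strand): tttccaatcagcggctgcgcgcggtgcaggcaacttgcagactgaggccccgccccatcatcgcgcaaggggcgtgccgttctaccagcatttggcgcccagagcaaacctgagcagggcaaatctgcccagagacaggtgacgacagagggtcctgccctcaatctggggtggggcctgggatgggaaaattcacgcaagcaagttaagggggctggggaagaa

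Class I genes were among the most abundant of the set. B2m, the light chain of all class I molecules (chromosome 2, 121973423 to 121978818), was at 126 FPKM in control against 257 in cKO (log2 1.02), above its own interval in both (92.9 to 104 and 194 to 203). H2-D1, a classical heavy chain (chromosome 17, 35400039 to 35404442), was at 59.8 FPKM in control (interval 56.9 to 63.0) and 133 in cKO (interval 133 to 138), a log2 difference of 1.14. Both had separate intervals and were counted higher. H2-K1, the other classical heavy chain, was at 37.4 and 66.4 FPKM (log2 0.81), and the nonclassical H2-T23, a ligand of NK cell receptors, at 16.0 and 22.1 (log2 0.44). The sum of H2-D1 and H2-K1 was 76.96% of B2m in control and 77.6% in cKO. Class I genes share sequence, with 14.3% of the words of H2-D1, 8.79% of H2-K1 and 29.8% of H2-T23 found in other genes, and how fragments were split among them is uncertain.

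Class II genes were all higher in cKO, 2 of 4 of them by the rule (beside 4.73% of all tested genes). Their median log2 difference was 0.95. Cd74, the invariant chain, was at 29.4 FPKM in control (interval 27.1 to 31.7) and 68.5 in cKO (interval 66.3 to 71.3), a log2 difference of 1.19. H2-Aa, the alpha chain of I-A (chromosome 17, 34419696 to 34424716), was at 20.8 and 44.2 FPKM (log2 1.06), above its own interval in both. H2-Ab1, the beta chain of the same molecule, was at 30.2 and 40.3 FPKM (log2 0.40). H2-Eb1, a beta chain of I-E, was at 6.35 and 12.1 FPKM (log2 0.84). The chains of I-A thus differed by unequal amounts, and H2-Ab1 had the higher level in control and H2-Aa in cKO, where their intervals overlap. Transcripts of the 4 genes share no 50-base word with another gene in GENCODE M21. Other class II genes moved less: of 10 tested, 0 were counted, with a median of 0.22. Ctsl and Lgmn, lysosomal proteases, were at 175 and 218 FPKM (log2 0.32) and at 164 and 116 (log2 -0.50). H2-DMb2 and H2-DMb1, which load peptides, were at 2.77 and 5.002 FPKM (log2 0.67) and at 4.58 and 7.15 (log2 0.55).

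The MHC holds many genes beside these, and all the others that were tested served for comparison. From Tapbp to H2-T23, 11 of the 45 genes lie within 2.11 Mb of chromosome 17 (34056423 to 36169646, mm9). Their median log2 difference was 0.77, and 2 were counted higher. The 94 other tested genes of the same interval had a median of 0.10, with 6 counted higher and 3 lower. Other antigen presentation genes were not removed from these 94. Over all tested genes the shares were 4.73% higher and 4.51% lower.

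Other genes of the pathway, listed by name, gave smaller differences, most of them in the same direction. Of 119 tested, 7 were counted higher, a share near the 4.73% of all tested genes, and 1 lower (beside 4.51%). A difference above 0 was found for 106, beside 61.4% of all tested genes. Their median was 0.48, beside 0.12 for all. The 119 include the 17 standard proteasome core and activator genes, of which 9 were above 0 and 8 below. Among 47 other interferon-induced genes, 4 were counted higher. They were Ccl5, a chemokine, at 0.997 FPKM in control against 5.002 in cKO (log2 1.59), Lgals3bp at 16.8 and 45.5 (log2 1.39), Ly6e at 37.2 and 80.8 (log2 1.10) and Ifitm6 at 0.967 and 3.05 (log2 1.04). In cKO the deposited interval ended at 4.05 FPKM for Ccl5 and at 2.64 FPKM for Ifitm6, below the value given for each gene. Mx2 was the gene counted lower, at 5.08 and 1.84 FPKM (log2 -1.10). Mx1 was below 0 too (log2 -0.11), but near the minimum of 1 FPKM and with overlapping intervals. Zbp1, a nucleic acid sensor, was counted higher at 0.925 and 3.11 FPKM (log2 1.09). Of 18 other class I pathway genes 2 were counted higher, both class I-like molecules: Fcgrt, the neonatal Fc receptor, at 56.6 and 154 FPKM (log2 1.43), and Mr1 at 5.39 and 15.1 (log2 1.33). The chaperones Calr (355 and 431 FPKM, log2 0.28) and Pdia3 (169 and 176, log2 0.06) were the most abundant there. Of 11 tested genes of interferon signalling 0 were counted, and Jak1 was at 26.2 and 34.1 FPKM (log2 0.37).

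Markers of other cells of the nerve moved with these genes. Of 6 markers of border macrophages, 5 (Mrc1, Cd163, Pf4, F13a1 and Ms4a7) were counted higher (beside 4.73% of all tested genes). Their median log2 difference was 1.31 and their summed level 50.7 FPKM in control against 132 in cKO. No border macrophage marker was at 0, and Pf4 was at 17.4 and 43.99 FPKM. Of 15 genes on a joint list of microglia and macrophage markers 0 were counted, with a median of 0.38 and a sum of 467 and 690 FPKM. C1qb was at 69.8 and 125 FPKM (log2 0.83), and Siglech at 4.34 and 3.09 (log2 -0.39). The class II sum of 86.8 FPKM in control against 165 in cKO was 171% and 125% of the border macrophage sum, and 18.6% and 23.9% of the microglia and macrophage sum. Of 9 meningeal fibroblast markers 6 were counted higher, with a sum of 1851 and 4285 FPKM. Of 8 mural cell markers 1 was counted higher (sum 262 and 463), and of 9 tested astrocyte markers 2 were, with a sum of 1415 and 2407 FPKM. That sum leaves out Gfap, the most abundant astrocyte marker in control at 3997 FPKM, which has no usable value in cKO (printed as 0 with the status HIDATA). Of 10 endothelial markers 0 were counted (sum 166 and 222), and 1 of them, Ly6c1, is also on the list of induced genes. The part of these markers in the differences above was not tested.

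Markers of lymphocytes and dendritic cells were low. The 8 T and NK cell markers summed to 1.26 FPKM in control against 3.49 in cKO, of which Cd4 alone reached the minimum, and Gzma was listed at 0 in control. The 4 B cell markers summed to 1.46 and 3.26 FPKM. Of 7 dendritic cell markers 3 were tested and 0 counted, with a sum of 13.9 and 19.0 FPKM of which Batf3 made up 10.1 and 12.8. The 5 neutrophil and monocyte markers with an entry summed to 6.76 and 11.1 FPKM, with 0 counted.

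**Figure D4:**
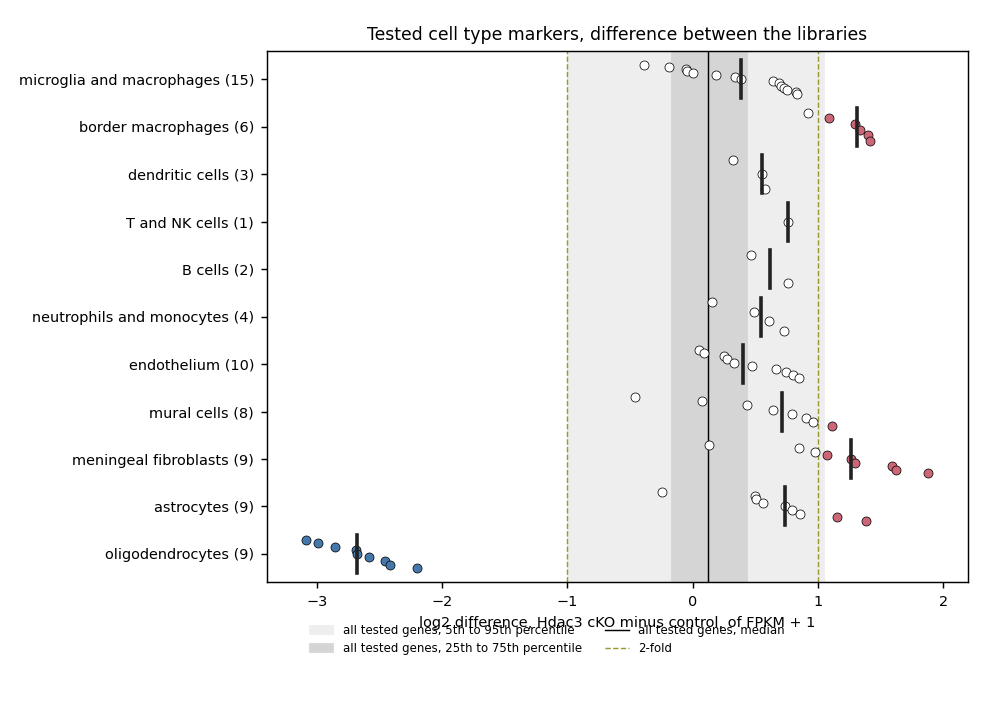
Log2 difference (cKO minus control, FPKM plus 1) of the tested markers of 11 cell types, with filled points for genes counted higher (red) or lower (blue), vertical bars for list medians and all tested genes in grey. Border macrophage and meningeal fibroblast medians lie beyond 2-fold on the higher side, at 1.31 and 1.26, and oligodendrocyte markers at -2.68 on the lower side.

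The size of the differences depended on the scaling, and the direction of the role medians did not. Ifi27l2a and Ifitm1 were counted higher in all 10 other settings run on single genes. Ifitm2, Ifitm3, H2-D1 and Cd74 fell below 2-fold only after scaling to the same sum, and Isg15 there and with a pseudocount of 5. B2m (4 settings), H2-Aa (5 settings) and Ifi27 (6 settings) were the least stable, with lowest values of 0.69, 0.73 and 0.69. Scaled to the same sum, 2 of 44 genes were counted higher, beside 1.52% of all tested genes. A single entry, the small nucleolar RNA Snord2 at 316 and 77619 FPKM, made up 13.9% of the cKO sum. Scaled to the same sum without it, a choice made after the values were seen, 7 were counted higher, beside 3.15% of all tested genes. Leaving out the 13 genes that share sequence or overlap another expressed entry, a choice made after the values were seen, left 5 of 31 counted higher, namely Isg15, Ifitm1, B2m, H2-Aa and Cd74, beside 4.73% of all tested genes.

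**Figure D5:**
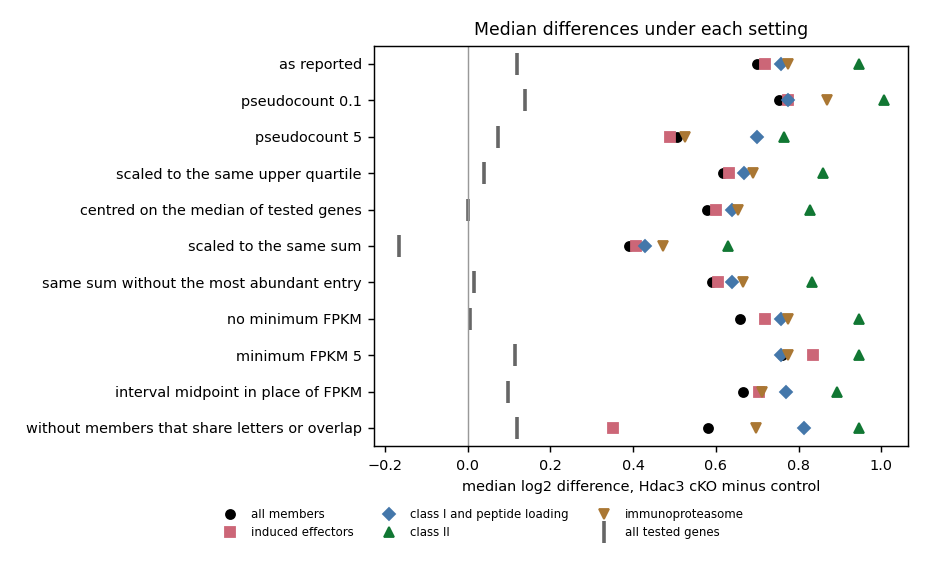
Median log2 difference (cKO minus control) of all members, induced effectors, class I with peptide loading, class II and the immunoproteasome under each setting, with grey bars for all tested genes. Each group median stays to the right of the median of all tested genes, and the members' median runs from 0.39 to 0.76.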

How the data were processed

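RNA-seq was done on 2 libraries of optic nerve at postnatal day 12, 1 per group. Per the file headers, the authors deposited an FPKM value for each gene together with interval bounds and a status code. Build mm9 and the tools Cufflinks, TopHat and CASAVA come from the submitters' processing notes. The sources used here give no versions, annotation, read length, normalisation mode or depth, so no interval or limit from counts could be computed. The tables hold 24460 entries (23950 symbols), and the entry with the highest summed FPKM stood for a symbol. The 14154 genes tested had status OK in both libraries and reached 1 FPKM in either, with a pseudocount of 1 and no further scaling. Python 3.11.15 and pandas 2.3.3 were used. The rule was tested on simulated data with counting noise alone and intervals placed around each value. That test does not show how the rule behaves with the deposited intervals or between animals. Deposited starts count from 0 and are printed counted from 1. With 1 library per group no p-value was computed. Sequence sharing was the percent of 50-base words of a gene's longest coding transcript (GENCODE M21) found in other genes, and at least 10% left a gene out of an alternative. The members, lists and thresholds were chosen with earlier results of these data known. All members may be named; of the other lists, genes counted, the 2 most abundant and the 2 with the largest difference per list, genes at 0, and Hdac3, Psmb5, Psmb6 and Psmb7. A further gene of this rule is not reported here. Siglech, Gzma and Ly6c1 fall outside this rule and were named after their values were seen. Promoter sequences are RefSeq's (GRCm38.p6), matched by symbol. The alternatives were 9 planned settings and 3 added after the data were seen.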

Additional observations from a re-analysis of the deposited data

How the results depend on the processing

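No paired analysis was possible because each group has 1 library, and no library could be left out. Scaling to the same sum gave 2 of 44 members counted higher (beside 1.52% of all tested genes) in place of 10 (beside 4.73%). It gave medians of 0.39 (members), 0.21 (receptors), 0.29 (regulators), 0.41 (effectors), 0.43 (class I and peptide loading) and 0.63 (class II). Centring on the median of tested genes gave 0.64 for class I and peptide loading, as did the same sum without the most abundant entry. The latter left 7 members counted higher (beside 3.15% of all tested genes). At 1.5-fold, 25 members were counted higher (beside 16.0% of all tested genes). Without the genes that share sequence or overlap, 5 of 31 were (beside 4.73%), and the effector median was 0.35. In every setting 0 members were counted lower. The share of all tested genes counted lower ran from 2.4% with a pseudocount of 5 to 8.85% at 1.5-fold. The medians of receptors, regulators, effectors, class I with peptide loading, class II and immunoproteasome kept their sign in each setting that gives a median. Signs changed for 2 genes not counted, Ifit1 and Usp18. Over all tested genes, 669 were higher and 638 lower, against 1156 and 823 with a pseudocount of 0.1, 282 and 339 with 5, 506 and 707 at the same upper quartile, 439 and 761 after centring, 215 and 963 at the same sum, 446 and 736 at the same sum without the most abundant entry, and 2262 and 1253 at 1.5-fold. Depth is unknown, and genes under about 1 FPKM, such as Nlrc5 and the interferon genes, cannot be compared.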
